A study of Mus musculus with 16 samples.

Results

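The colony-stimulating factors are cytokines that keep monocytes, macrophages and granulocytes alive and drive their formation, and they act through receptors on those cells. The genes described here are 7 of the 48795 gene identifiers counted in the series: the ligands Csf1 and Il34, their shared receptor Csf1r, the receptor chains Csf2ra, Csf2rb and Csf2rb2, and the receptor Csf3r. They were chosen by name as members of this cytokine and receptor family, with earlier results of these data known. Csf1 and IL-34 both bind the receptor tyrosine kinase Csf1r, on which macrophages depend for survival. Csf2ra, with the common beta chain Csf2rb, forms the receptor of granulocyte-macrophage colony-stimulating factor, and Csf2rb2 is a beta chain of mice that serves the IL-3 receptor. Csf3r binds granulocyte colony-stimulating factor and carries signals for neutrophil formation and release.

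The RNA came from livers of mice aged 4 weeks and was sequenced in 16 libraries, 1 for each combination of 4 sorted populations, 2 strains and 2 genotypes. The populations were cells sorted with the lectin DBA and labelled cholangiocytes, Ly6Chi infiltrating macrophages, Ly6Clo infiltrating macrophages, and neutrophils. The strains were C57BL/6 and BALB/c, and the genotypes were wild type and Ift88Orpk, a partial loss-of-function allele of a gene needed to build cilia that causes cystic disease of liver and kidney. Each library held RNA of 6 to 8 mice, with as many males as females, so the spread between mice was not measured. The libraries of 1 strain and genotype may come from the same mice, and no group had a replicate library of its own. Strain and genotype combinations therefore served as the 4 replicates of a population, and p-values measure only the spread between these pools. Within a population, the values of the 4 libraries are given in the order C57BL/6 wild type, C57BL/6 labelled Ift88Orpk, BALB/c wild type and BALB/c labelled Ift88Orpk.

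Gene counts totalled 10170795 to 26093556 per library. Levels are counts relative to the library's total (CPM), scaled with TMM factors that even out differences in RNA composition. Ift88 itself was lower in the library labelled Ift88Orpk in 2 of 8 pairs of libraries, the DBA-sorted ones. Ratios over all pairs ran from 0.538 to 4.37. Of those 2, the C57BL/6 ratio (0.870, 95% counting interval 0.694 to 1.09) had an interval that included 1. The BALB/c interval was 0.415 to 0.693. Of the other 6 ratios, all above 1, those of C57BL/6 Ly6Clo (1.02, 95% counting interval 0.761 to 1.39) and BALB/c Ly6Chi macrophages (1.36, 0.996 to 1.85) had intervals that included 1. Whether gene counts report on this allele cannot be told from the counts, so these libraries are called by their label throughout. Markers of sinusoidal endothelial cells summed to 17110 ± 2910 CPM (SD, n = 4) in the DBA-sorted libraries and the 10 cholangiocyte markers to 711 ± 221 CPM, so these libraries are called DBA-sorted here. The neutrophil libraries held 15380 ± 3391 CPM of neutrophil markers and 3404 ± 1256 CPM of markers of Ly6Chi monocytes. The DBA-sorted BALB/c library labelled Ift88Orpk stood apart from the other 3 DBA-sorted libraries. Its neutrophil markers summed to 137 CPM against 4.77 to 14.3 CPM, its Ly6Chi monocyte markers to 1065 CPM against 238 to 389 CPM, and its stellate cell and fibroblast markers to 9699 CPM against 1890 to 4329 CPM.

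The receptor chains Csf2ra, Csf2rb, Csf2rb2 and Csf3r shared 1 order of means, from neutrophils over Ly6Chi and Ly6Clo macrophages to DBA-sorted cells, and Csf1r and the ligands had other orders. Csf3r was highest in neutrophils, Csf1r in Ly6Chi macrophages, Csf1 in neutrophils and then DBA-sorted cells, and Il34 in DBA-sorted cells. The chains Csf2ra and Csf2rb were highest in neutrophils, lower in the macrophages and near the bottom of their range in DBA-sorted cells. Between Ly6Chi and Ly6Clo macrophages, 5 of the 6 genes tested passed an adjusted p below 0.05, all higher in Ly6Chi, where 21.9% of 18588 genes passed, 10.9% higher and 11% lower. In bulk RNA, fewer cells of a type and less RNA per cell cannot be told apart.

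**Figure D1:**
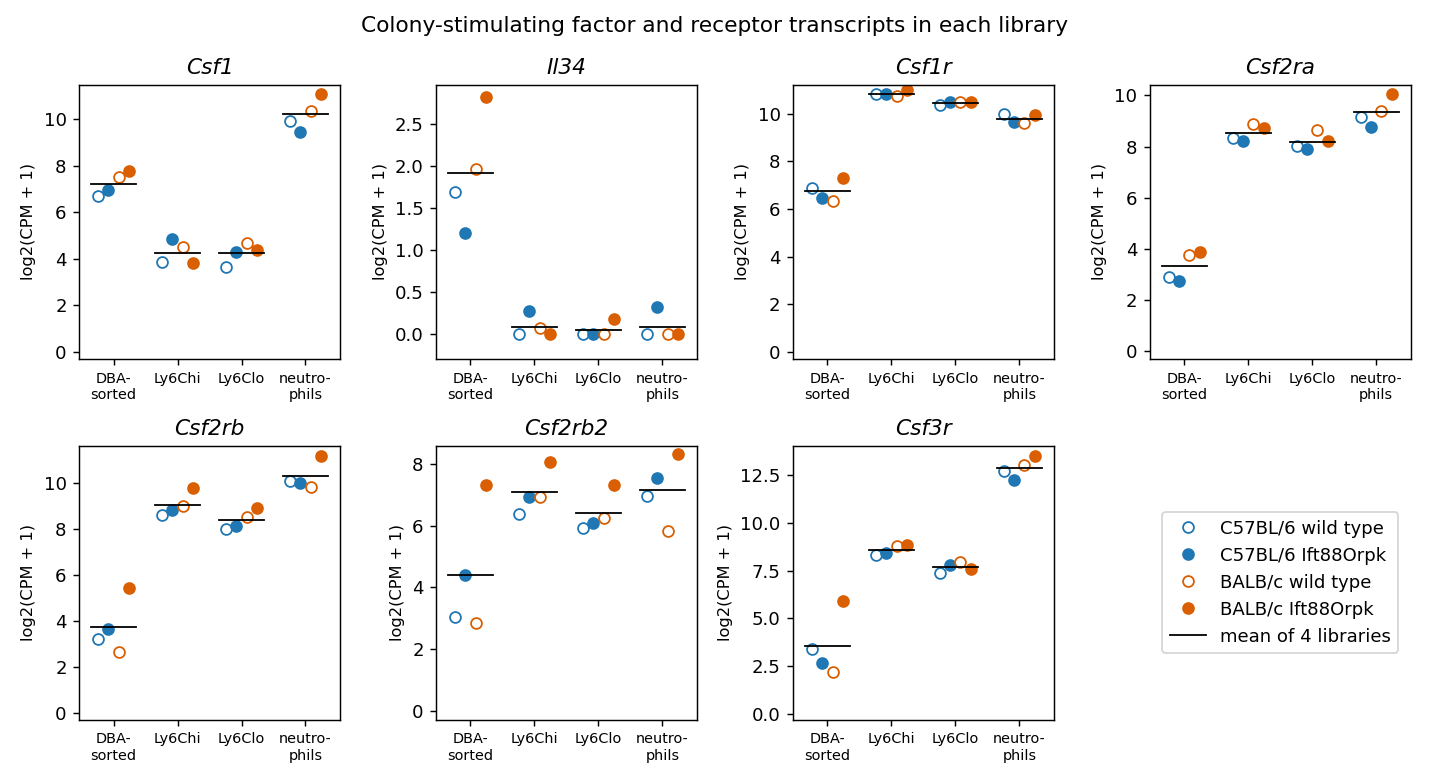
Level of each gene in each of the 16 libraries, as log2(CPM + 1), with 1 panel per gene. Points are libraries, colours are strains, open points are wild type, filled points are labelled Ift88Orpk, and black lines are means of 4 libraries. Csf3r reaches 11360 CPM in neutrophils, Csf1 separates the populations into high, middle and low, and Il34 is near 0 outside the DBA-sorted libraries.

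Csf1 (ENSMUSG00000014599, GRCm38 chr3:107741048-107760469, minus strand) encodes macrophage colony-stimulating factor, the ligand that most tissue macrophages need. In neutrophils it was at 978, 702, 1320 and 2192 CPM. DBA-sorted cells held 104, 122, 181 and 219 CPM. Ly6Chi macrophages held 13.7, 28.2, 21.6 and 13.2 CPM, and Ly6Clo macrophages 11.6, 18.9, 24.9 and 19.8 CPM. The neutrophil libraries all lay above the DBA-sorted ones, and the DBA-sorted ones all above the macrophages, while the macrophage groups overlapped throughout. The log2 difference of Ly6Chi macrophages from neutrophils was -6.03 ± 0.43 (SE), with an adjusted p of 1.41e-05 by edgeR's quasi-likelihood test with Benjamini-Hochberg adjustment, the test behind every adjusted p given here unless another is named. That of Ly6Clo macrophages from neutrophils was -6.03 ± 0.31 (adjusted p = 3.37e-06). Neutrophils exceeded DBA-sorted cells by 3.14 ± 0.25 (adjusted p = 1.63e-05). Csf1 fell by 3.06 ± 0.29 on the log2 scale from DBA-sorted cells to Ly6Chi macrophages (adjusted p = 6.41e-05), and fell by 3.09 ± 0.18 to Ly6Clo macrophages (adjusted p = 1.92e-05). Between the macrophage types the difference was -0.00 ± 0.19 with a 95% interval of -0.37 to 0.37, and its sign changed with the scaling.

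Il34 (ENSMUSG00000031750, GRCm38 chr8:110741829-110805924, minus strand) encodes the other Csf1r ligand, known from skin and brain, where it maintains Langerhans cells and microglia. In DBA-sorted cells it was at 2.22, 1.29, 2.91 and 6.08 CPM, from 253 counts in all. It had 6 counts over the 4 Ly6Chi libraries, 3 over the Ly6Clo libraries and 4 over the neutrophil libraries. Every DBA-sorted library was above every leukocyte library. Summed counts per depth were 36.9 times higher in DBA-sorted cells than in Ly6Chi macrophages (95% exact binomial interval 16.7 to 102), 97.5 times higher than in Ly6Clo macrophages (33.0 to 476) and 41.5 times higher than in neutrophils (16.0 to 154); these intervals cover counting error only. The adjusted p was 0.00912 against Ly6Chi macrophages, 0.00245 against Ly6Clo macrophages and 0.0172 against neutrophils. The last rose to 0.107 without the BALB/c libraries labelled Ift88Orpk. Its exons share 75 and 22 bases with predicted genes Gm15895 and Gm15894 on the other strand, and since the strand setting of the counting is not given in the sources used here, reads there cannot be told apart.

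Csf1r (ENSMUSG00000024621) encodes the receptor of both ligands and is a defining gene of monocytes and macrophages. In Ly6Chi macrophages it was at 1791, 1795, 1689 and 2015 CPM. In Ly6Clo macrophages it was at 1300, 1435, 1428 and 1437 CPM. In neutrophils it was at 1012, 794, 787 and 979 CPM, and in DBA-sorted cells at 117, 86.5, 80.9 and 156 CPM. The 4 populations followed each other in that order with no overlap of libraries. Ly6Chi exceeded Ly6Clo macrophages by 0.37 ± 0.06 on the log2 scale (adjusted p = 0.00351) and neutrophils by 1.03 ± 0.17 (adjusted p = 0.00127). Ly6Clo macrophages exceeded neutrophils by 0.65 ± 0.19 (adjusted p = 0.0171), a call lost without the BALB/c wild-type libraries (adjusted p = 0.0836), without the C57BL/6 libraries labelled Ift88Orpk (0.113) and with upper-quartile scaling (0.0532). The differences from DBA-sorted cells were 4.07 ± 0.21, 3.67 ± 0.22 and 3.21 ± 0.23 for Ly6Chi, Ly6Clo and neutrophils, with adjusted p of 3.16e-06, 2.09e-05 and 1e-05. Markers of Ly6Chi monocytes summed to 7475 ± 1047 CPM in the Ly6Chi libraries and 3404 ± 1256 CPM in the neutrophil libraries, and markers of Ly6Clo monocytes to 3029 ± 706 CPM in the Ly6Clo libraries and 2920 ± 738 CPM in the neutrophil libraries, with all 9 and all 7 markers counted. Of the Ly6Clo monocyte markers, Nr4a1 alone averaged 2651 CPM in the neutrophil libraries and 916.5 CPM in the Ly6Clo ones. Most of the neutrophil sum of that list was thus 1 gene. The part of either marker list in the Csf1r level of the neutrophil libraries was not tested. The exons of Csf1r share 873 bases with those of Hmgxb3 on the other strand, where reads cannot be told apart.

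The neutrophil and DBA-sorted libraries each held the ligand and receptor transcripts at like levels, while the macrophage libraries held almost only the receptor. Per kilobase of exon, Csf1 was 0.967 to 2.45 times Csf1r in the 4 neutrophil libraries and 0.968 to 2.45 times in the DBA-sorted libraries. In Ly6Chi macrophages that ratio was 0.00718 to 0.0172, and in Ly6Clo macrophages 0.00978 to 0.0190. The ranges of the macrophages did not touch those of the other populations. Kupffer cell markers summed to 181 ± 45.2 CPM in the DBA-sorted and 386 ± 231 CPM in the neutrophil libraries. In the Ly6Chi and Ly6Clo libraries they summed to 76.3 ± 32.6 and 126 ± 55.4 CPM. Whether the same cells held both transcripts cannot be told from bulk RNA, and the part of Kupffer cells was not tested.

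**Figure D2:**
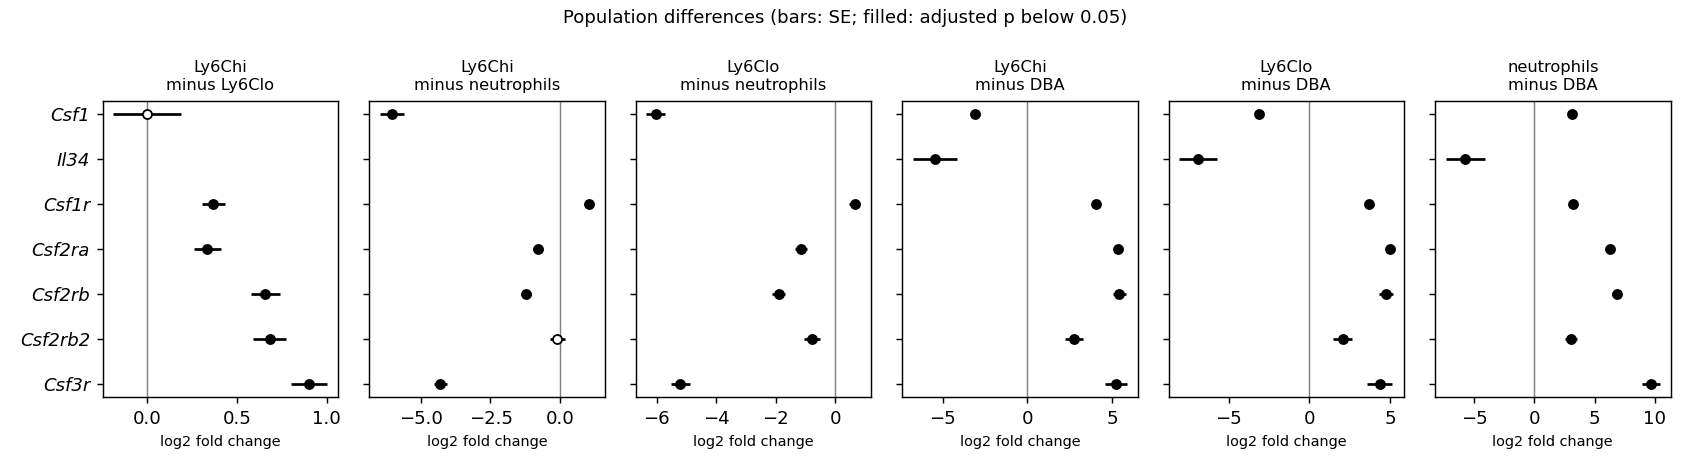
Log2 fold change of each gene between each pair of populations, 1 panel per pair, each panel with its own axis. Points are fitted values over 8 libraries, bars are SE, and filled points have an adjusted p below 0.05. Csf1 and Csf1r differ in sign in the comparisons of macrophages with neutrophils (-6.03 and 1.03 for Ly6Chi).

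Csf2ra (ENSMUSG00000059326, GRCm38 chr19:61223957-61228429, minus strand) encodes the chain that binds granulocyte-macrophage colony-stimulating factor specifically. In neutrophils it was at 568, 437, 667 and 1052 CPM. Ly6Chi macrophages held 323, 296, 468 and 424 CPM, and Ly6Clo macrophages 256, 239, 404 and 295 CPM. In DBA-sorted cells it was at 6.55, 5.69, 12.8 and 13.8 CPM, far below every leukocyte library. The Ly6Chi and Ly6Clo libraries overlapped, but within each of the 4 strain and genotype combinations Ly6Chi was the higher, by 0.33 ± 0.08 on the log2 scale (adjusted p = 0.0122). This call was lost without the C57BL/6 libraries labelled Ift88Orpk (adjusted p = 0.0547) or without the C57BL/6 wild-type ones (0.0539). Ly6Chi macrophages were below neutrophils by -0.81 ± 0.18 (adjusted p = 0.00622) and Ly6Clo macrophages by -1.15 ± 0.21 (adjusted p = 0.00178). The differences from DBA-sorted cells were 5.33 ± 0.20, 4.96 ± 0.22 and 6.32 ± 0.26 for Ly6Chi, Ly6Clo and neutrophils, with adjusted p of 2.12e-06, 1.1e-05 and 1.92e-06.

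Csf2rb (ENSMUSG00000071713, GRCm38 chr15:78325752-78353847, plus strand) encodes the beta chain shared by the receptors of granulocyte-macrophage colony-stimulating factor, IL-3 and IL-5. In neutrophils it was at 1116, 1051, 914 and 2379 CPM. Ly6Chi macrophages held 395, 458, 518 and 891 CPM, Ly6Clo macrophages 261, 282, 369 and 482 CPM, and DBA-sorted cells 8.22, 11.4, 5.32 and 43.1 CPM. The BALB/c library labelled Ift88Orpk was the highest in all 4 populations, and the macrophage libraries all lay below the neutrophil ones. Ly6Chi exceeded Ly6Clo macrophages by 0.66 ± 0.08 on the log2 scale (adjusted p = 0.000526). Ly6Chi and Ly6Clo macrophages were below neutrophils by -1.24 ± 0.18 (adjusted p = 0.000645) and -1.91 ± 0.21 (adjusted p = 9.71e-05). The differences from DBA-sorted cells were 5.42 ± 0.37, 4.73 ± 0.42 and 6.85 ± 0.38 for Ly6Chi, Ly6Clo and neutrophils, with adjusted p of 1.09e-05, 0.000107 and 2.63e-06.

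Csf2rb2 (ENSMUSG00000071714, GRCm38 chr15:78282507-78305721, minus strand) is the neighbour and close copy of Csf2rb. In neutrophils it was at 124, 186, 56.7 and 321 CPM. It stood at 82.1, 123, 123 and 268 CPM in Ly6Chi macrophages, in Ly6Clo macrophages at 60.7, 67.0, 75.9 and 159 CPM, and in DBA-sorted cells at 7.23, 20.3, 6.18 and 162 CPM. The library labelled Ift88Orpk was the higher of each pair. The leukocyte populations overlapped each other. DBA-sorted cells overlapped them only through the BALB/c library labelled Ift88Orpk, which reached the level of the macrophages. Ly6Chi exceeded Ly6Clo macrophages by 0.68 ± 0.09 on the log2 scale (adjusted p = 0.000894). Its difference from neutrophils was -0.11 ± 0.27 for Ly6Chi macrophages, with a 95% interval of -0.64 to 0.43 (adjusted p = 0.774), and -0.79 ± 0.28 for Ly6Clo macrophages (adjusted p = 0.0401). The latter call was lost without any 1 of 3 strain and genotype combinations (adjusted p = 0.127 without C57BL/6 wild type, 0.17 without C57BL/6 labelled Ift88Orpk, 0.129 without BALB/c labelled Ift88Orpk), in a fit of all 16 libraries (0.203) and without the block for combinations (0.137). The differences from DBA-sorted cells were 2.76 ± 0.54, 2.05 ± 0.58 and 3.05 ± 0.47 for Ly6Chi, Ly6Clo and neutrophils, with adjusted p of 0.00347, 0.0247 and 0.000678. Without the BALB/c libraries labelled Ift88Orpk these were 3.48, 2.73 and 3.65. Without the block their adjusted p were 0.198, 0.501 and 0.118, and that of Ly6Clo macrophages was 0.0816, 0.0713 and 0.102 without BALB/c wild type, C57BL/6 labelled Ift88Orpk and C57BL/6 wild type.

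Csf2rb and Csf2rb2 are close copies, so some of their reads cannot be told apart. Their coding sequences, of 2688 and 2634 bases, were identical at 95.4% of 2626 aligned bases in the GENCODE models, with 122 mismatches. Of all stretches of 75 bases, the length of a read, 518 occurred in both genes, 7.15% of those of Csf2rb and 10.6% of those of Csf2rb2 over all exons. Within the coding alignment 413 of 2251 windows of that length had no mismatch, and the median window had 2. Read pairs with both mates wholly inside shared stretches can align to both genes. Because reads came in pairs, the shares of single 75-base stretches are not the shares of pairs affected. The deposited table keeps reads not aligned uniquely in a line of their own, outside the genes. How many of them came from these genes is not known, so both levels are uncertain. The coding stretches that differ most, with 14 mismatches in 75 bases shown in capitals, show what separates the copies; both are given 5′ to 3′ on the coding strand, at coding bases 316 to 390 of Csf2rb and 319 to 393 of Csf2rb2.
Csf2rb: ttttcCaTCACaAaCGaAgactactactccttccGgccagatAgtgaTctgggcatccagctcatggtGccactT
Csf2rb2: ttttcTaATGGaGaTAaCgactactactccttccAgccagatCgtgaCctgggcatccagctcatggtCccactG

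The ratio of the beta chains was compared within each library, where depth does not enter. Per kilobase of exon, Csf2rb2 was 1.35, 2.73, 1.78 and 5.76 times Csf2rb in the DBA-sorted libraries. It was 0.319, 0.412, 0.365 and 0.462 times in Ly6Chi macrophages and 0.357, 0.364, 0.316 and 0.508 times in Ly6Clo macrophages. It was 0.171, 0.271, 0.0952 and 0.207 times in neutrophils. The DBA-sorted ratios all lay above those of the leukocytes and the macrophage ratios above the neutrophil ones, while Ly6Chi and Ly6Clo macrophages overlapped. Which chain was the more abundant in DBA-sorted cells depended on the length used. With the longest transcript of each gene in place of all exon bases, the DBA-sorted ratios were 0.909, 1.84, 1.2 and 3.88, so Csf2rb led in the C57BL/6 wild-type library, and Csf2rb led in all 12 leukocyte libraries with either length. Markers of endothelial cells and of stellate cells and fibroblasts were highest in the DBA-sorted libraries, and their part in the ratio was not tested.

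**Figure D3:**
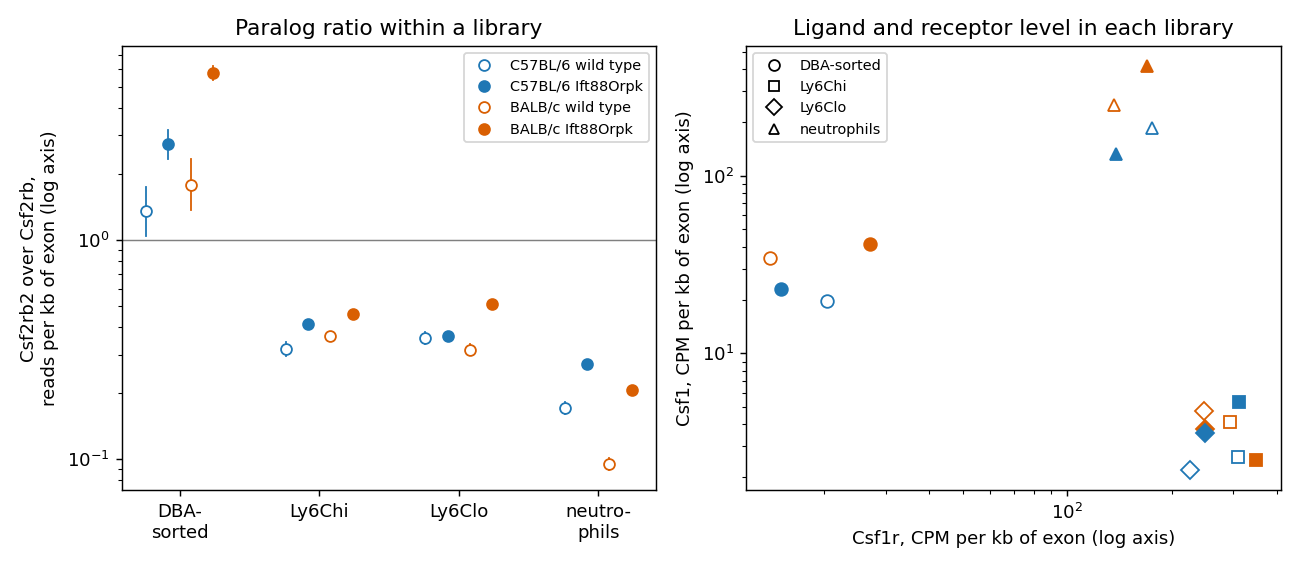
Left, Csf2rb2 over Csf2rb in reads per kilobase of exon within each library, on a log axis, with bars of the 95% counting interval and the grey line at equal levels. Right, Csf1 against Csf1r in CPM per kilobase of exon on log axes, with shapes for populations, and with colours and fill for strain and genotype as on the left. The DBA-sorted libraries lie above the grey line at 1.35 to 5.76 (0.909 to 3.88 with the longest transcripts, 1 of them then below it), and the macrophages lie apart at high Csf1r and low Csf1.

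Csf3r (ENSMUSG00000028859, GRCm38 chr4:126024550-126044440, plus strand) encodes the receptor of granulocyte colony-stimulating factor, a defining gene of neutrophils. In neutrophils it was at 6796, 4923, 8426 and 11360 CPM. In Ly6Chi macrophages it was at 321, 339, 444 and 459 CPM, in Ly6Clo macrophages at 167, 221, 250 and 191 CPM, and in DBA-sorted cells at 9.39, 5.35, 3.51 and 59.4 CPM. The 4 populations followed each other in that order with no overlap of libraries. Per kilobase of exon it ranked 10 among 21695 protein-coding genes in neutrophils, while Csf1r ranked 39 in Ly6Chi and 43 in Ly6Clo macrophages. Ly6Chi exceeded Ly6Clo macrophages by 0.90 ± 0.10 on the log2 scale (adjusted p = 0.000374). Ly6Chi and Ly6Clo macrophages were below neutrophils by -4.29 ± 0.23 (adjusted p = 7.03e-06) and -5.20 ± 0.31 (adjusted p = 4.17e-06). The differences from DBA-sorted cells were 5.23 ± 0.65, 4.33 ± 0.75 and 9.69 ± 0.73 for Ly6Chi, Ly6Clo and neutrophils, with adjusted p of 0.000282, 0.00291 and 1.27e-05, and were 6.02, 5.15 and 10.3 without the BALB/c libraries labelled Ift88Orpk. Neutrophil markers, all 10 counted, summed to 814, 1278, 117 and 157 CPM in the Ly6Chi libraries and to 304, 663, 1604 and 639 CPM in the Ly6Clo libraries. They were higher in Ly6Chi macrophages in both C57BL/6 combinations and lower in both BALB/c ones, and their part in the Csf3r level was not tested.

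The 5 calls between Ly6Chi and Ly6Clo macrophages rested on pairing the libraries of a combination. Without that block only Csf3r passed, and the adjusted p of Csf1r was 0.0548, of Csf2ra 0.393, of Csf2rb 0.172 and of Csf2rb2 0.349. With all 16 libraries in the fit no member passed, and Csf3r had an adjusted p of 0.424. Dendritic cell markers summed to 487 ± 161 CPM in Ly6Clo and 54.8 ± 34.2 CPM in Ly6Chi macrophages, and T and NK cell markers to 670 ± 355 and 66.8 ± 69.8 CPM. Their part in the lower receptor levels of the Ly6Clo libraries was not tested. Csf1r and Csf3r were the members whose Ly6Chi libraries all exceeded the Ly6Clo ones, and 8.34% of the 18588 genes were separated in that direction.

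In the other population comparisons most members passed, as did a large share of all genes. Between Ly6Chi macrophages and neutrophils 5 of 6 members tested passed, against 42.8% of all genes, and between Ly6Clo macrophages and neutrophils all 6 tested passed, against 44.7%. In both, Csf1r was the 1 member higher in the macrophages, as were 21.7% and 23.4% of all genes, and the others that passed were lower, as were 21.1% and 21.3%. Against DBA-sorted cells all 7 passed in each comparison, where 44.8% of genes passed for Ly6Chi macrophages, 40.6% for Ly6Clo macrophages and 45.9% for neutrophils. Of those 7, the 5 receptor genes were higher in each leukocyte population, as were 21.1%, 19.3% and 22.8% of all genes in that order, and 23.7%, 21.3% and 23.2% of genes were lower. Il34 was lower in each leukocyte population, and Csf1 in the macrophages only, being higher in neutrophils. Il34 did not reach the count minimum in the comparisons among leukocytes and was not tested there. The members' order per kilobase differed between the populations. In neutrophils Csf3r (2182 ± 756 CPM per kb, n = 4) was followed by Csf1 (246 ± 123), Csf2ra (237 ± 92.1), Csf2rb (188 ± 93.6) and Csf1r (155 ± 20.7). The spreads of Csf1, Csf2ra, Csf2rb and Csf1r over the libraries overlapped, and Csf2rb2 (36.3 ± 23.8) came next. Within the single neutrophil libraries, Csf2rb was 0.541 to 0.949 times Csf2ra per kilobase of all exon bases. In Ly6Chi macrophages Csf1r (316 ± 23.8) was followed by Csf2ra (131 ± 28.4) and Csf3r (108 ± 19.6), which overlapped, then Csf2rb (77.7 ± 30.6), Csf2rb2 (31.4 ± 17.2) and Csf1 (3.63 ± 1.35). Ly6Clo macrophages had the same order of means, from 242 ± 11.6 for Csf1r to 3.56 ± 1.03 for Csf1. With the longest transcript as the length, Csf2rb came before Csf3r in both macrophage types (115 and 112 in Ly6Chi, 71.1 and 59.5 in Ly6Clo). In DBA-sorted cells Csf1 (29.64 ± 10.04) and Csf1r (19.1 ± 5.97) led, and Csf2rb2, Csf3r, Csf2ra, Csf2rb and Il34 had means of 10.3 to 1.60 whose spreads overlapped between neighbours.

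Csf2rb2 was higher in the library labelled Ift88Orpk in 8 of 8 pairs of the same strain and population, as were 1.08% of the 21534 genes tested. In DBA-sorted cells the ratio was 2.81 in C57BL/6 (95% counting interval 2.29 to 3.47) and 26.2 in BALB/c (21.9 to 31.6). In Ly6Chi macrophages it was 1.5 and 2.18, in Ly6Clo macrophages 1.10 and 2.10, and in neutrophils 1.49 and 5.68, in the same order of strains. The BALB/c pair had the larger ratio in all 4 populations. The genotype fits share 1 estimate of the spread over all 4 populations, so an SE below is not the spread of that population alone. The fitted log2 difference of the genotypes was 3.11 ± 0.81 in DBA-sorted cells (adjusted p = 0.677), 0.85 ± 0.68 in Ly6Chi and 0.61 ± 0.69 in Ly6Clo macrophages, and 1.54 ± 0.72 in neutrophils, with adjusted p of 1.0 in the last 3. None of the 7 members and 0% of the 21534 genes passed for genotype in any population; at an unadjusted p below 0.05 there were 1140 genes for the DBA-sorted cells, 934 for neutrophils, 408 for Ly6Chi and 348 for Ly6Clo macrophages. With DESeq2 these numbers were 83, 26, 3 and 11 calls, and Csf2rb2 was among the 83 (log2 3.07, adjusted p = 0.0104).

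Averaged over the 4 populations, a contrast added after the pairs were seen, the genotype difference of Csf2rb2 was 1.53 ± 0.36 (adjusted p = 0.347) and that of Csf2rb 0.79 ± 0.28 (adjusted p = 0.622). Of all genes 0% passed. Csf2rb was higher in the library labelled Ift88Orpk in 7 of 8 pairs, a count whose share over all genes was not taken. The log2 ratios of Csf2rb2 ran from 0.14 to 4.50 at a pseudocount of 1 CPM, and those of Csf2rb from -0.09 to 2.80. Its fitted genotype differences were 1.75 ± 0.61 in DBA-sorted cells (adjusted p = 0.836), 0.65 ± 0.56 in neutrophils, and 0.50 ± 0.55 and 0.25 ± 0.54 in Ly6Chi and Ly6Clo macrophages. The genotype difference was larger in BALB/c than in C57BL/6 by 1.62 ± 0.41 for Csf2rb2 (adjusted p = 0.467; 0.0231 with DESeq2) and by 1.18 ± 0.39 for Csf2rb (adjusted p = 0.644), and 0% of genes passed for this term, with 1202 at an unadjusted p below 0.05 and 227 called by DESeq2. Without the DBA-sorted BALB/c library labelled Ift88Orpk, the genotype difference in DBA-sorted cells was 1.49 for Csf2rb2 and 0.48 for Csf2rb, and the mean over populations 1.13 and 0.47. In the DBA-sorted libraries Csf2rb2 followed the order of the stellate cell and fibroblast markers, which summed to 2160, 4329, 1890 and 9699 CPM. Markers of Ly6Chi monocytes (367, 389, 238 and 1065 CPM) and of Ly6Clo monocytes (77.6, 89.2, 54.5 and 167 CPM) had the same order. The part of any of these lists in the difference was not tested. In Ly6Chi macrophages the stellate cell and fibroblast markers summed to 81.6, 111, 77.9 and 86.9 CPM. Both these markers and Csf2rb2 were higher there in the library labelled Ift88Orpk of each strain. The markers summed to 65.9, 132, 111 and 102 CPM in Ly6Clo macrophages and to 74.5, 392, 208 and 172 CPM in neutrophils. In the BALB/c pairs of these populations the markers were lower in the library labelled Ift88Orpk, where Csf2rb2 was higher. The part of the markers in the leukocytes was not tested either.

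**Figure D4:**
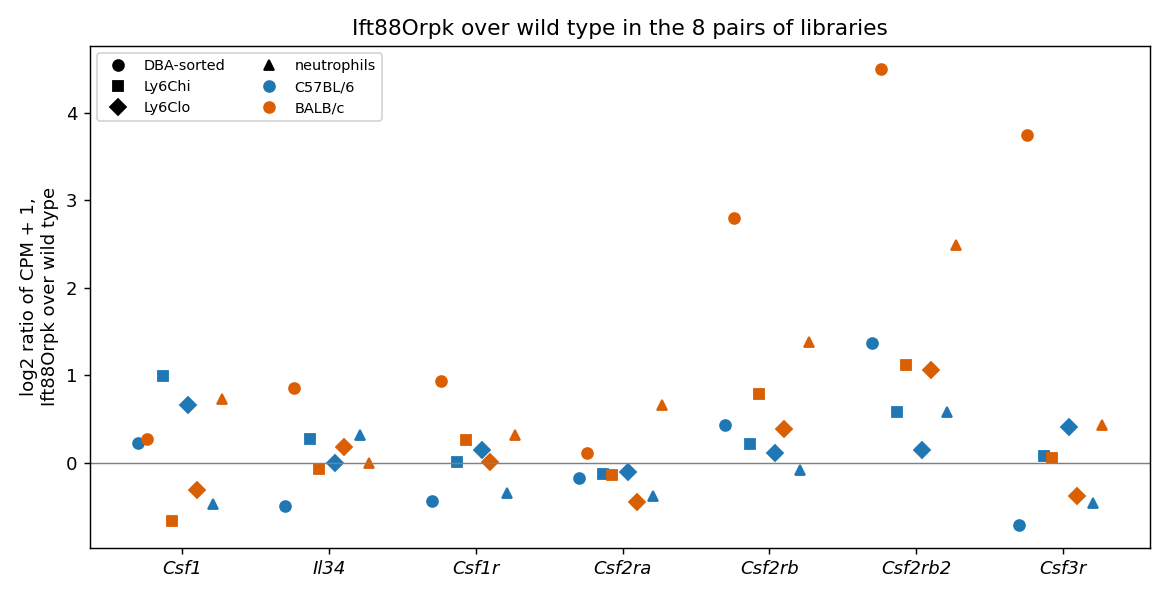
Log2 ratio of CPM + 1 of the library labelled Ift88Orpk over the wild-type library, for each gene in the 8 pairs of 1 strain and population, with shapes for populations and colours for strains. Csf2rb2 lies above 0 in all 8 pairs, from 0.14 to 4.50, and the other genes have points on both sides of 0.

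The other members had no common direction by genotype. Csf1 was higher in the library labelled Ift88Orpk in 5 of 8 pairs, Csf1r in 6 (5 with relative log expression factors), Csf3r in 5, Il34 in 4 and Csf2ra in 2. Their median log2 ratios were 0.25, 0.08, 0.06, 0.09 and -0.13, where the median of all genes was 0.0. The highest ratio of Csf3r, 3.74, came from the DBA-sorted BALB/c pair, whose library labelled Ift88Orpk held 137 CPM of neutrophil markers against 4.77 CPM in wild type, all 10 of them counted against 5. In the C57BL/6 DBA-sorted pair the log2 ratio of Csf3r was -0.71, beside 10.2 and 14.3 CPM of those markers. Their part in the Csf3r level was not tested.

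Csf2ra was higher in BALB/c than in C57BL/6 in 8 of 8 pairs of the same genotype and population, as were 2.7% of the genes, with log2 ratios of 0.23 to 1.26. Its fitted strain difference was 1.12 ± 0.29 in DBA-sorted cells (adjusted p = 0.247; 0.0361 with DESeq2), 0.75 ± 0.28 in neutrophils (adjusted p = 0.315), and 0.53 ± 0.27 and 0.48 ± 0.27 in Ly6Chi and Ly6Clo macrophages. No member passed for strain within a population, where 0.297%, 0.334%, 0.306% and 1.34% of the genes passed in DBA-sorted cells, Ly6Chi macrophages, Ly6Clo macrophages and neutrophils. Averaged over the populations, again a contrast added after the pairs were seen, Csf2ra passed with 0.72 ± 0.14 (adjusted p = 0.0285). It was the only member to do so, where 4.24% of the genes passed. That call was lost in 12 of 16 fits that left out 1 library, each of those of the DBA-sorted and macrophage libraries, with adjusted p of 0.0542 to 0.131. Csf1 was higher in BALB/c in 7 of 8 pairs, the exception being Ly6Chi macrophages labelled Ift88Orpk. The share of all genes with that count was not taken. Over the populations the strain difference of Csf1 averaged 0.55 ± 0.23 (adjusted p = 0.246). In neutrophils the strain difference of Csf1 was 1.04 ± 0.46 (adjusted p = 0.423), and in DBA-sorted cells 0.82 ± 0.45 (adjusted p = 0.659). No member passed in the tests of whether the difference between the macrophage types depended on strain or genotype, nor did any other gene (0% for each).

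Of the other ligands of these receptors almost nothing was counted. Csf2, which encodes granulocyte-macrophage colony-stimulating factor, had 4 counts in all, in Ly6Clo macrophages. Il3 and Il5 had 0 counts in every library. Csf3, the ligand of Csf3r, was at 0.886 to 5.97 CPM in neutrophils (119 counts) and had 10 to 19 counts in each other population. Il3ra, the chain that binds IL-3 together with Csf2rb2 or Csf2rb, averaged 28.5 ± 9.43 CPM in DBA-sorted cells and 8.48 ± 4.52 CPM in neutrophils, with 17.4 ± 0.60 and 11.7 ± 1.41 CPM in Ly6Chi and Ly6Clo macrophages. DBA-sorted cells were thus highest for Il3ra, where they were lowest on average for Csf2rb2. Of the other IL-34 binding proteins, Sdc1 was at 36.6 ± 13.6 CPM in DBA-sorted cells and 6.79 to 10.04 CPM on average in the leukocytes, and Ptprz1 had at most 3 counts in any population.

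Other genes of the pathway were read from a list of 47, most of them signalling genes and lineage factors, with ligands, partner receptor chains, other IL-34 binding proteins and the receptor sheddase Adam17 among them. Between Ly6Chi and Ly6Clo macrophages, 17 of 41 tested were higher in Ly6Chi and 5 lower, where 10.9% of all genes were higher and 11% lower, with a median log2 difference of 0.26 where the median of all genes was -0.02. Tyrobp, an adaptor that joins Csf1r to Syk signalling, rose by 0.82 ± 0.07 (adjusted p = 0.000119). The kinase Lyn rose by 0.64 ± 0.08, and the lineage factor Cebpb by 0.92 ± 0.10. Among the 5 lower were Jak2, the kinase bound to the common beta chain (-0.57 ± 0.12, adjusted p = 0.00954), the feedback inhibitor Socs2 (-1.80 ± 0.29) and the lineage factors Gfi1 (-2.21 ± 0.29) and Irf4 (-0.80 ± 0.13).

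Against neutrophils, 2 of 5 feedback genes were lower in Ly6Chi and 4 of 5 in Ly6Clo macrophages, while 6 of 10 lineage factors were higher and 3 lower in each. In Ly6Chi macrophages 8 of 42 list genes tested were higher than in neutrophils, a share close to the 21.7% of all genes, and 20 were lower, against 21.1%, with a median of -0.60 against 0.08 for all genes. In Ly6Clo macrophages 7 of 42 were higher, against 23.4% of all genes, and 24 lower, against 21.3%, with a median of -0.72 against 0.20. Pim1, a kinase induced by STAT5, was lower by -2.22 ± 0.20 in Ly6Chi and -2.47 ± 0.22 in Ly6Clo macrophages, and Socs3, an inhibitor of Csf3r signalling, by -2.15 ± 0.25 and -2.24 ± 0.22. The monocyte factors Klf4, Irf8 and Irf4 were higher than in neutrophils, by 2.27 ± 0.25, 2.06 ± 0.28 and 2.39 ± 0.30 in Ly6Chi macrophages. Against DBA-sorted cells 32 list genes were higher in each leukocyte population, of 41 tested in either macrophage type and 42 in neutrophils, where 21.1%, 19.3% and 22.8% of all genes were higher. In that order of populations 7, 6 and 3 list genes were lower, against 23.7%, 21.3% and 23.2% of all genes. All 4 STAT factors of the list were among the higher ones in each. Jak1 was lower than in DBA-sorted cells in both macrophage types (-1.26 ± 0.16 and -1.10 ± 0.18).

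The genes whose log2(CPM + 1) followed each member most closely over the 16 libraries, among 10435 genes, were of the same population pattern, since the libraries share 4 populations; the correlations are given as a description. Csf1 was nearest to Carhsp1 (Pearson r = 0.988), Igf1r and Pdlim7. Csf1r was nearest to Cd68 (0.995), Irf5 and Susd3, and Csf3r to Cd33 (0.991), Svil and Nlrp3. Il34 was nearest to Cldn4 (0.977), a tight junction gene of the cholangiocyte marker list, followed by Lamc3 and C7. That list as a whole summed to 986, 544, 520 and 794 CPM in the DBA-sorted libraries, another order than that of Il34. Csf2ra was nearest to Arhgap9 (0.996), Myo1f and Safb2, and Csf2rb to Vmp1 (0.995), Itgam and Nr4a1. Csf2rb2 had no gene as close: Noct reached 0.946, Dnajb13 0.907 and Rnf41 0.9.

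Of the 5 receptor genes higher in Ly6Chi than in Ly6Clo macrophages, the promoters of Csf2ra, Csf2rb2 and Csf3r were read for the PU box, the letters GAGGAA on either strand, bound by the myeloid factor Spi1. RefSeq promoters (GRCm38.p6, the 250 bases before the start) were used for these and for Csf1. Those of Csf1r, Csf2rb and Il34 are not reported here, so the share of the 5 receptor genes with a match is not given. The RefSeq start lay 109 bases inside the GENCODE gene for Csf3r and 11 bases inside it for Csf2ra, so the Csf3r match and the nearer Csf2ra match fall within those gene models. The motif, in capitals below, occurred at -14 to -9 and -8 to -3 from the start of Csf2ra, at -167 to -162 of Csf2rb2 on the other strand, and at -86 to -81 of Csf3r. The Csf1 window did not hold these letters, and 23.2% of 32851 promoter windows of the same length hold them. A match is a description of the sequence and not of binding. The sequences are given 5′ to 3′ on the strand of the gene, at chr19:61228419-61228668 (minus) for Csf2ra, chr15:78305722-78305971 (minus) for Csf2rb2 and chr4:126024409-126024658 (plus) for Csf3r.
Csf2ra: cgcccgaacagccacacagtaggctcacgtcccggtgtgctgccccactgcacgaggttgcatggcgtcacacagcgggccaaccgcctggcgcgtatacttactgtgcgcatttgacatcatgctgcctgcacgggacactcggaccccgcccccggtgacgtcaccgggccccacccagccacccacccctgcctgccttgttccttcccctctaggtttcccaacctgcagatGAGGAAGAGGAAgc
Csf2rb2: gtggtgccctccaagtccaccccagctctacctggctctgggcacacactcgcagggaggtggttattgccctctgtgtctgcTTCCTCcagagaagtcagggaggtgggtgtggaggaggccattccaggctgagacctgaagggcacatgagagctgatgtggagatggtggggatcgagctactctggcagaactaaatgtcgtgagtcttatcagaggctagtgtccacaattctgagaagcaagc
Csf3r: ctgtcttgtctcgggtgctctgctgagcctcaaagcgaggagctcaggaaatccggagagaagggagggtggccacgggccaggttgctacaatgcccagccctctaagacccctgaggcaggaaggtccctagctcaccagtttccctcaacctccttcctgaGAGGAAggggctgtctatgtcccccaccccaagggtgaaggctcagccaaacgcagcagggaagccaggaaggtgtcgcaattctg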

How the data were processed

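Sorted liver cells of 16 groups were sequenced as 1 library each, from RNA pooled over 6 to 8 mice. Per the labels' protocols, RNA with an integrity number above 7 was made into NEBNext libraries with ribosome reduction and read as paired-end 75 bases. Per the labels' protocols, reads were aligned with STAR to GRCm38/mm10 and the deposited values are raw counts per Ensembl gene from HTSeq-count 0.9.1. Which STAR version, strand setting and annotation were used is not given in the sources used here. FPKM values, which the labels' protocols mention, were not analysed here. Of 48795 identifiers, 48349 matched GENCODE, which gave names, positions and exon lengths. Reads in no feature made up 29.08 to 45.18% of a library and stayed out of library sizes, as did 7.02 to 11.18% that were not uniquely aligned.

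Counts were filtered with filterByExpr, scaled with TMM and passed to the quasi-likelihood test of edgeR 4.0.16 in R 4.3.3. P-values were adjusted by Benjamini and Hochberg's method across every gene tested, and 0.05 was the threshold. Each population pair was fitted in its 8 libraries, blocked by the combination of strain and genotype. Differences of genotype and strain were fitted within each population in all 16 libraries. Strain served as the replicate of genotype, and genotype as that of strain. All populations shared 1 estimate of the spread in these fits, as 1 population alone leaves 1 residual degree of freedom. Each SE was taken from the fold change and the F statistic (log2 change divided by root F). Pair ratios used a pseudocount of 1 CPM. Alternatives tried were scaling by relative log expression or upper quartiles, other filters, DESeq2 1.42.0, other sets of libraries, and Csf2rb and Csf2rb2 summed as 1 gene. Named genes were all 7 members, up to 5 called list genes in each direction (1 of them is not reported here), and the 3 nearest genes of each member by Pearson r with a mean of at least 5 CPM; Il3ra, Sdc1 and the other ligands are given as list genes with their levels. The members, lists and rules were chosen with earlier results of these data known.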

Additional observations from a re-analysis of the deposited data

Results flagged for a closer look

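Several libraries lay far from the other 3 of their population by Dixon's test of the gap over the range, which chance alone does in about 1 in 20 groups; 28 sets of 4 libraries were read. The BALB/c libraries labelled Ift88Orpk were the high ones for Csf2rb in DBA-sorted cells (43.05 CPM) and in neutrophils (2379 CPM), for Csf2rb2 in DBA-sorted cells (161.5 CPM) and in Ly6Clo macrophages (159.3 CPM), and for Csf3r in DBA-sorted cells (59.44 CPM). In the DBA-sorted one, the summed markers of neutrophils (137 CPM), of Ly6Chi monocytes (1065 CPM) and of stellate cells with fibroblasts (9699 CPM) were each the highest of the 4 DBA-sorted libraries, and their part in these levels was not tested. Csf1r was low in the C57BL/6 wild-type Ly6Clo library, at 1300 CPM against 1428 to 1437 CPM in the other 3. Il34 stood at 0.1297 CPM in the BALB/c Ly6Clo library labelled Ift88Orpk and at 0.2458 CPM in the C57BL/6 neutrophil library labelled Ift88Orpk, where the other 3 libraries of each population had no count; these values rest on 3 and 4 counts.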

How the results depend on the processing

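The number of members called between populations stayed within 1.5 times its main value under the alternatives, except between Ly6Chi and Ly6Clo macrophages, where it was 0 with all 16 libraries and 1 without the block for combinations; the cause was not tested. The labels number no replicates, so pairing rests on the combination of strain and genotype, the block of the population fits. DESeq2 called 1 member, where edgeR called none, for genotype and for strain in DBA-sorted cells and for the strain by genotype term. The strain call averaged over populations ranged from 0 to 1 members when 1 library was left out. Over all genes, Ly6Chi against Ly6Clo macrophages gave 4067 calls, 1444 with all 16 libraries, 1861 without the block and 2698 to 3385 without 1 combination. Strain calls were 64, 72, 66 and 288 in DBA-sorted cells, Ly6Chi macrophages, Ly6Clo macrophages and neutrophils with edgeR and 486, 517, 394 and 928 with DESeq2, and 153, 127 and 548 for the last 3 with the 12 leukocyte libraries; without a filter Ly6Chi and Ly6Clo macrophages gave 124 and 103, and leaving out 1 library gave as few as 4, 5 and 123 in the leukocytes. The mean over populations gave 912 strain calls, or 285 to 1236 without 1 library. Genotype in DBA-sorted cells gave 0 to 48 calls without 1 library, the strain by genotype term 0 to 187, and the strain by macrophage type term 0 to 8 or 28 with DESeq2.

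Csf1 between Ly6Chi and Ly6Clo macrophages changed sign, to 0.006 with DESeq2, 0.007 with relative log expression factors, 0.007 without a filter, 0.017 without the block and 0.086 with all 16 libraries, and ran from -0.193 to 0.198 when 1 combination was left out. Csf2rb2 between Ly6Chi macrophages and neutrophils ran from -0.489 to 0.073. With 1 library left out, Csf2rb by genotype in neutrophils ran from -0.079 to 1.375 and Csf1 by strain in Ly6Chi macrophages from -1.09 to 0.658. With a strain by genotype term added, which by construction makes the genotype difference that of C57BL/6, it was -0.091 for Csf2rb in Ly6Chi macrophages, and -0.341 for Csf2rb and -0.203 for Csf2rb2 in Ly6Clo macrophages. Counting the refits of all members, signs changed in 9 of 459 for populations, 46 of 402 for genotype, 49 of 402 for strain and 68 of 396 for the terms of difference. Levels per kilobase rose with the longest transcript in place of all exons, to 387.7, 297.8 and 190.0 for Csf1r in Ly6Chi macrophages, Ly6Clo macrophages and neutrophils, to 165.7 and 131.1 for Csf2ra and to 115.4 and 71.09 for Csf2rb in the 2 macrophage types. Upper-quartile scaling moved the median of all genes by -0.11 and -0.10 on the log2 scale for Ly6Chi and Ly6Clo macrophages against neutrophils. Depth limits Il34 most, with 3 to 6 counts in each leukocyte population.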
